A study of Mus musculus with 15 samples.

Results

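Eph receptors and ephrins were compared between microvascular endothelial cells of mouse brain, heart and liver. The family was taken as 10 listed genes, the ligands Efnb2, Efnb1, Efna1 and Efna5 and the receptors Ephb4, Ephb1, Ephb2, Epha2, Epha4 and Epha7, each read through the probe set that carries its symbol alone and has the highest mean over all arrays. Of these, 9 were found among the 19938 genes with such a probe set, and Ephb2 was not analysed here. The list was not chosen by a threshold on these values, but it was drawn up with earlier results of these data known.

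The 3 groups were brain, heart and liver endothelial cells, with 5 arrays each. All came from Tie2-GFP mice on the FVB background, 8 to 12 weeks old, males and females in equal number, which make green fluorescent protein under the Tie2 (Tek) promoter, active in endothelium. Each brain array held RNA pooled from 6 mice, each heart array from 4 and each liver array from 2. Visible large vessels were removed and GFP-positive cells were sorted straight into lysis buffer, so small arteries, capillaries and small veins of a tissue lie mixed in 1 sample. The digestion differed with the tissue (collagenase with a brief trypsin step for brain, collagenase for heart, dispase for liver), so tissue, digestion and pool size cannot be told apart. The labels number the 5 samples of each tissue from 1 to 5 but do not say what a shared number means. The p-values of the main fit take no account of these numbers and measure the spread between these samples.

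Eph receptors form the biggest family of receptor tyrosine kinases, and their ligands, the ephrins, sit in the membrane of the neighbouring cell. A-class ephrins are held by a lipid anchor and mostly bind EphA receptors, whereas B-class ephrins cross the membrane and mostly bind EphB receptors, with Epha4 binding ligands of both classes. Contact sends a forward signal into the cell with the receptor and a reverse signal into the cell with the ephrin, often ending in repulsion or in changed adhesion. In blood vessels, Efnb2 marks arterial and Ephb4 venous endothelium, and both are needed for the first vascular network of the embryo to remodel.

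Promoters are shown for the 5 measured genes of the family whose mean level differed by at least 1 on the log2 scale between some pair of tissues, since these carry most of the tissue differences described below. The windows come from RefSeq on GRCm38.p6 and run from 250 bases before to 50 bases after the start of the gene, 5′ to 3′ on the strand of the gene. They lie at chr8:8661193-8661492 on the minus strand for Efnb2, at chr9:102354644-102354943 on the minus strand for Ephb1 and at chr1:77515039-77515338 on the minus strand for Epha4. On the plus strand they lie at chrX:99135811-99136110 for Efnb1 and at chr5:137349859-137350158 for Ephb4. Capitals mark matches, on either strand, to core letters of factor families with known roles in endothelium. For ETS factors the letters searched were CCGGAA. For RBPJ, which carries Notch signals to DNA, they were TGGGAA. The letters of the GATA family were AGATAA. Those of SOX factors were AACAAT, and those of forkhead (FOX) factors were TGTTTA.
Efnb2: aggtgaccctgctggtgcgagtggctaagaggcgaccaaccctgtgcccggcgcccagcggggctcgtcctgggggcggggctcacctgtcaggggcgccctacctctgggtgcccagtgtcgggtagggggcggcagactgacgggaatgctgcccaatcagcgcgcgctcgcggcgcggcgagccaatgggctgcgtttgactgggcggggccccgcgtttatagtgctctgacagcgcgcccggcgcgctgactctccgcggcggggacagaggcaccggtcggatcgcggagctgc
Efnb1: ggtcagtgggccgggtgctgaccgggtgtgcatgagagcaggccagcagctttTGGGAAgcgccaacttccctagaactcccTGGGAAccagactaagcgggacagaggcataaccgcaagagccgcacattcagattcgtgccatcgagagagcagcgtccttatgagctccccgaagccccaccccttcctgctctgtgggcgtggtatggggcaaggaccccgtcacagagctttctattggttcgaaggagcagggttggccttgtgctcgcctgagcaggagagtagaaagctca
Ephb4: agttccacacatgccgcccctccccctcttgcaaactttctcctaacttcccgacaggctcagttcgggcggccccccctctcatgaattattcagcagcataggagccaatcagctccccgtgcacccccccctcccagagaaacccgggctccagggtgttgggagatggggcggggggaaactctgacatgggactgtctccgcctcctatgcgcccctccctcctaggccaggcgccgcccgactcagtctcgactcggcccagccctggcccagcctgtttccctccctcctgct
Ephb1: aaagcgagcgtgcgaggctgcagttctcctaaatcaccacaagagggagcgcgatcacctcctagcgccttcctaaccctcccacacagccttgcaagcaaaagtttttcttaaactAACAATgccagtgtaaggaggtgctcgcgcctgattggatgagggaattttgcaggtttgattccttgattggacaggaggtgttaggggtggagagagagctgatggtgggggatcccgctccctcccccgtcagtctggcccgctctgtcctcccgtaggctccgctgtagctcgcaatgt
Epha4: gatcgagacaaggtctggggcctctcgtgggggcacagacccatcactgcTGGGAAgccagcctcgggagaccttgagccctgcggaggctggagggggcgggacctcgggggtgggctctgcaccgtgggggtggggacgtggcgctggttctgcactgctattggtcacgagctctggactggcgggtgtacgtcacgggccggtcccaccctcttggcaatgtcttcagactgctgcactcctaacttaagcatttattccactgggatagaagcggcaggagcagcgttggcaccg

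The windows of Efnb2 and Ephb4, the arterial and the venous gene of the family, held none of the 5 sets of letters. The RBPJ letters stood at -197 and -168 from the start of Efnb1 and at -200 from the start of Epha4, and the SOX letters at -133 from the start of Ephb1. No matches overlapped. Over all 32817 RefSeq windows of this length in the table, 25.6% held the RBPJ letters, 10.7% the SOX letters, 14.9% the ETS letters, 13.4% the FOX letters and 11.2% the GATA letters, so these matches are common ones. Base composition varied between the windows. The share of G or C was 72.3% for Efnb2, 64.7% for Ephb4, 64% for Epha4, 59.7% for Efnb1 and 55.7% for Ephb1. The median over all windows was 52.7%. Of all windows, 43.4% reached the 54.7% of the Epha2 window, the lowest among the 10 listed genes and not shown here. These coordinates belong to the RefSeq table and not to the probe sets, whose build is not given in the sources used here.

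The arrays were alike in overall level, with medians between 5.98 and 6.11 on the log2 scale, and no pair held identical values. The 20 genes used to check for endothelial identity, Pecam1, Cdh5 and Tek among them, averaged 10.01 to 10.36 on the brain arrays, 10.05 to 10.15 on the heart arrays and 10.02 to 10.20 on the liver arrays. Of these 20, 5 were called higher and 4 lower in brain minus heart, where 15.4% of all genes were called. For brain minus liver 7 were higher and 5 lower (25.1% of all genes), and for heart minus liver 6 and 6 (27.8%). Markers of other cells were present and uneven. Each of the 11 cardiomyocyte markers was called higher in heart against brain and against liver, with array means of 9.46, 8.50, 9.01, 7.83 and 7.89 in heart replicates 1 to 5, against 5.84 to 5.98 for brain and 5.56 to 5.75 for liver. Of 10 macrophage and Kupffer cell markers, 9 were higher in liver than in both others, with array means of 7.89, 5.84, 8.60, 8.15 and 5.52 in liver replicates 1 to 5, against 4.97 to 5.17 in brain and 5.06 to 5.47 in heart. For pericyte and smooth muscle markers the array means were 7.90, 6.48, 6.92, 7.10 and 6.24 in brain replicates 1 to 5, 8.31, 7.61, 8.05, 7.55 and 6.86 in heart replicates 1 to 5, and 6.12 to 6.22 over the liver arrays, and 5 of 10 were lower in liver than in both others. Fibroblast markers had array means of 7.56, 6.75, 7.02, 6.72 and 6.30 in heart replicates 1 to 5, against 5.31 to 5.92 for brain and 5.30 to 5.95 for liver. In the order brain, heart, liver, hepatocyte markers had array means of 6.05 to 6.14, 5.24 to 5.30 and 6.76 to 7.36. Of these 10 markers, 8 were higher in liver than in both others and 1 was higher in brain. Alb was among the 8, with means of 4.19, 4.26 and 9.88. Of that list, Ttr (12.49, 5.33 and 8.44 in the same order) and Cyp2e1 (6.72, 5.14 and 6.66) set the brain mean above that of heart. None of the 9 measured neuron markers was higher or lower in 1 tissue than in both others, and their array means were 5.03 to 5.10 for brain, 4.97 to 5.18 for heart and 4.74 to 5.10 for liver. The deposited values have no zero, so no marker can be said to be absent. Fewer cells of a type and less RNA per cell cannot be told apart in such sorted bulk samples.

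**Figure D1:**
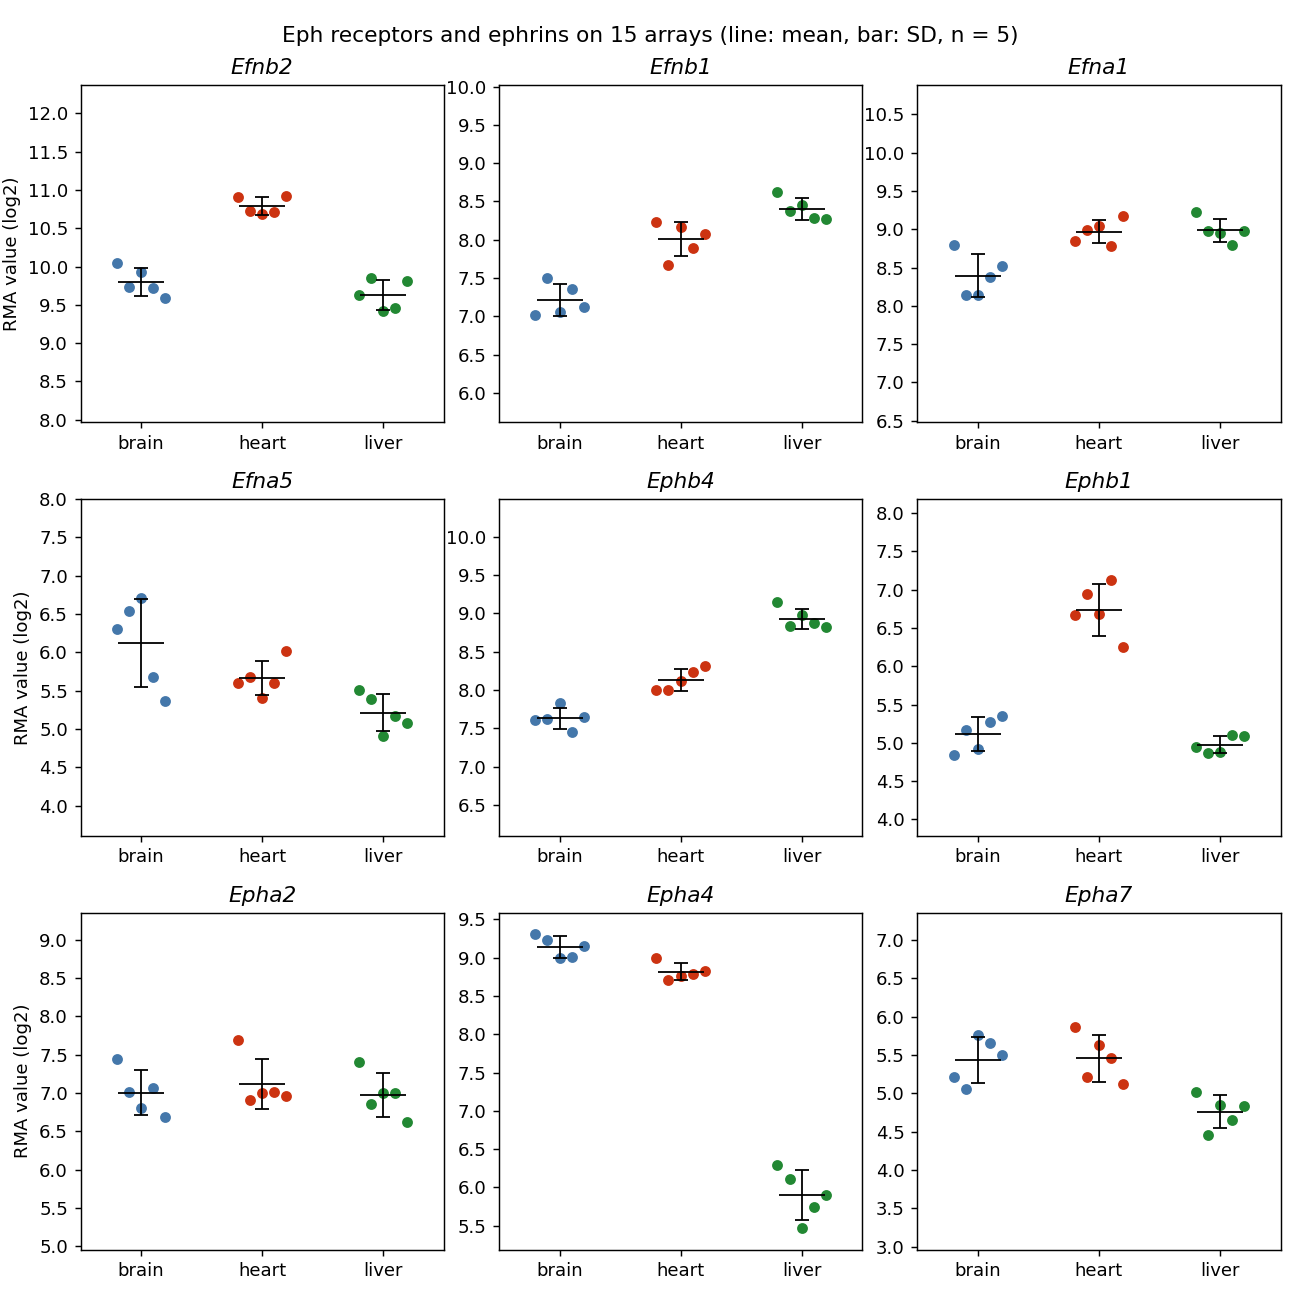
Log2 level of each of the 9 measured family members on every array, with 1 panel per gene, 5 points per tissue in the order brain, heart, liver, and a line with bar for the mean and SD. Epha4 lies near 9 in brain and heart and near 6 in liver, Ephb1 and Efnb2 are highest in heart, Ephb4 and Efnb1 are lowest in brain and highest in liver, and Epha2 overlaps in all 3 tissues.

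A gene is called different between 2 tissues below when limma's Benjamini-Hochberg adjusted p over all 19938 genes was under 0.05. Differences are log2 differences with their standard error (SE), and folds are powers of 2 of them. Levels of different genes come from different probes and are not compared with each other. How far levels under 6 lie above the background of the array was not tested, so folds against such levels are those of the deposited values and no bounds.

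Among the ligands, Efnb2 stood out in heart. Its log2 levels were 10.05, 9.73, 9.93, 9.72 and 9.59 on the brain arrays, 10.90, 10.72, 10.68, 10.72 and 10.92 on the heart arrays, and 9.62, 9.85, 9.42, 9.46 and 9.81 on the liver arrays. Every heart array lay above every brain and every liver array, while brain and liver interleaved. Brain averaged 9.80 ± 0.18, heart 10.79 ± 0.11 and liver 9.63 ± 0.20 (SD, n = 5 each). Brain minus heart was -0.99 (SE 0.11, limma adjusted p = 1.86e-06), so brain lay 1.98-fold below heart, and heart minus liver was 1.16 (SE 0.11, adjusted p = 1.55e-07), a 2.23-fold difference. Between brain and liver the difference was 0.17 with a 95% interval of -0.052 to 0.39 (adjusted p = 0.294), so no difference between these was called. With heart replicates 1 and 3 left out, the arrays with the highest cardiomyocyte means, the differences were -0.99 for brain minus heart and 1.16 for heart minus liver (adjusted p of 3.85e-05 and 4.43e-06). Heart also exceeded both others for 3 of the 10 pericyte and smooth muscle markers and 5 of the 9 fibroblast markers. The part of those markers in the Efnb2 values was not tested. With the arrays centred on the endothelial genes, brain minus heart was -1.09, which made Efnb2 exceed both other tissues by at least 1. Those genes were themselves uneven between brain and heart, with 5 called higher and 4 lower in brain. Cldn5 had means of 11.27 in brain and 8.92 in heart, and its weight in the centring was not tested.

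Efnb1, the other B-class ligand among the members, was lowest in brain. Its levels were 7.02, 7.50, 7.06, 7.36 and 7.12 in brain, 8.23, 7.68, 8.17, 7.89 and 8.08 in heart, and 8.62, 8.37, 8.46, 8.28 and 8.27 in liver. The 3 tissues did not overlap, with brain at the bottom and liver at the top, although the highest heart and the lowest liver array nearly touched. Brain averaged 7.21 ± 0.21, heart 8.01 ± 0.23 and liver 8.40 ± 0.15 (SD, n = 5 each). Brain minus heart was -0.80 (SE 0.12, adjusted p = 9.51e-05) and brain minus liver -1.19 (SE 0.12, adjusted p = 4.10e-07), a 2.28-fold lower level in brain than in liver. The step between heart and liver rested on single arrays. Heart minus liver was -0.39 (SE 0.12, adjusted p = 0.0199). It was -0.31 once heart replicate 2 was left out, -0.36 once heart replicate 4 was, and -0.34 once liver replicate 1 was, with adjusted p of 0.0601, 0.0505 and 0.0592. Leaving out liver replicates 1, 3 and 4, the arrays with the highest macrophage means, gave -0.31 (adjusted p = 0.248). Of the 10 hepatocyte markers 8 were higher in liver too, and their part in the Efnb1 values was not tested.

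The A-class ligand Efna1, which binds Epha2 and is known as a gene that inflammatory signals switch on in endothelium, had its lowest level in brain. Brain arrays had 8.80, 8.14, 8.14, 8.37 and 8.52, heart arrays 8.85, 8.99, 9.04, 8.79 and 9.18, and liver arrays 9.23, 8.98, 8.95, 8.80 and 8.98. Of the brain arrays, replicate 1 lay at the level of the lowest heart and liver arrays and the rest lay below all of them. Brain averaged 8.39 ± 0.28, heart 8.97 ± 0.15 and liver 8.99 ± 0.15 (SD, n = 5 each). Brain minus heart was -0.58 (SE 0.12, adjusted p = 0.00265) and brain minus liver -0.59 (SE 0.12, adjusted p = 0.00122), folds of 1.49 and 1.51. Heart minus liver was -0.015 with a 95% interval of -0.27 to 0.24 (adjusted p = 0.946).

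Efna5, an A-class ligand known for repelling growing axons, varied more between brain arrays than any other member did. Its levels were 6.30, 6.55, 6.71, 5.68 and 5.37 in brain, 5.60, 5.68, 5.41, 5.60 and 6.02 in heart, and 5.51, 5.39, 4.90, 5.17 and 5.08 in liver. The brain arrays spread widely, with 3 above every heart and liver array, 1 within the range of heart and 1 just below it. Brain averaged 6.12 ± 0.57, heart 5.66 ± 0.22 and liver 5.21 ± 0.24 (SD, n = 5 each). Brain exceeded liver by 0.91 (SE 0.21, adjusted p = 0.00328), a 1.88-fold difference, and this was 0.89 (adjusted p = 0.0544) once liver replicates 1, 3 and 4 were left out. The excess over heart was 0.46 (SE 0.21, adjusted p = 0.179), and it reached 0.64 once brain replicate 5 was left out (adjusted p = 0.0252). Heart minus liver was 0.45 (SE 0.21, adjusted p = 0.127), and a fit to these 2 tissues alone called it with an adjusted p of 0.0220. The pericyte and smooth muscle means of the brain arrays also varied, and their part in the Efna5 values was not tested.

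Among the receptors, Ephb4, the venous partner of Efnb2, formed a clean series of 3 levels. The brain arrays read 7.61, 7.62, 7.83, 7.45 and 7.65, the heart arrays 8.01, 8.00, 8.11, 8.24 and 8.31, and the liver arrays 9.15, 8.83, 8.97, 8.87 and 8.82. No array of any tissue reached the range of another. Brain averaged 7.63 ± 0.13, heart 8.13 ± 0.14 and liver 8.93 ± 0.14 (SD, n = 5 each). Brain minus heart was -0.50 (SE 0.091, adjusted p = 0.000647), brain minus liver -1.30 (SE 0.091, adjusted p = 3.44e-09) and heart minus liver -0.80 (SE 0.091, adjusted p = 2.64e-06). In folds, liver lay 2.46 times above brain and 1.74 times above heart. Against liver replicates 2 and 5 alone the differences were -1.20 for brain and -0.69 for heart (adjusted p of 3.01e-06 and 0.00067). The part of the hepatocyte markers, 8 of 10 of which were also higher in liver, was not tested for Ephb4. Efnb2 and Ephb4 thus had different orders of tissues: heart was highest for the ligand and liver for the receptor, and brain was called lower than heart for both.

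Ephb1, an EphB receptor best known from axon guidance and synapses, stood highest in heart. It read 4.84, 5.16, 4.92, 5.28 and 5.35 in brain, 6.67, 6.94, 6.69, 7.13 and 6.25 in heart, and 4.95, 4.86, 4.88, 5.10 and 5.09 in liver. All heart arrays lay well above all others, and brain and liver overlapped. Brain averaged 5.11 ± 0.22, heart 6.73 ± 0.33 and liver 4.98 ± 0.11 (SD, n = 5 each). The brain minus heart difference was -1.62 (SE 0.14, adjusted p = 1.16e-07), a 3.08-fold lower level in brain, and heart minus liver was 1.76 (SE 0.14, adjusted p = 2.55e-08), a 3.38-fold difference, both against levels under 6. For brain minus liver it was 0.13 with a 95% interval of -0.16 to 0.43 (adjusted p = 0.582). A second Ephb1 probe set gave -1.17 for brain minus heart, -0.10 for brain minus liver and 1.07 for heart minus liver. Of the 10 pericyte and smooth muscle markers 3 were also higher in heart than in both others, as were 5 of the 9 fibroblast markers. The part of these markers in the Ephb1 values was not tested. Heart replicates 2, 4 and 5 alone gave -1.66 for brain minus heart and 1.80 for heart minus liver (adjusted p of 3.42e-06 and 8.88e-07).

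Epha4, the receptor that binds ligands of both classes, had the widest difference of the 9 genes. Its levels were 9.31, 9.23, 8.99, 9.00 and 9.15 in brain, 9.00, 8.71, 8.77, 8.79 and 8.82 in heart, and 6.29, 6.11, 5.46, 5.74 and 5.91 in liver. Brain and heart lay close together, with heart replicate 1 level with the lowest brain arrays, and liver lay far below both. Brain averaged 9.14 ± 0.14, heart 8.82 ± 0.11 and liver 5.90 ± 0.32 (SD, n = 5 each). Brain minus liver was 3.23 (SE 0.13, adjusted p = 9.50e-13), a 9.41-fold difference that 1.06% of all genes exceeded in size. Heart minus liver was 2.91 (SE 0.13, adjusted p = 6.61e-12), a 7.53-fold difference that 0.828% of all genes exceeded. The step of 0.32 between brain and heart (SE 0.13, 95% interval 0.056 to 0.59) was not called (adjusted p = 0.103). Since the fit shares its estimate of spread, the same 0.32 passed once liver replicate 3 was left out (adjusted p = 0.0481), once liver replicates 1, 3 and 4 were (adjusted p = 0.0215) and in a fit to brain and heart alone (adjusted p = 0.0228). Of the 10 pericyte and smooth muscle markers, 5 were also lower in liver than in both others and 0 were higher. The part of these markers in the Epha4 difference was not tested. Against liver replicates 2 and 5 alone the differences were 3.13 for brain and 2.80 for heart.

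Epha7, an EphA receptor known mainly from the developing nervous system, was lower in liver at a low overall level. It read 5.21, 5.06, 5.76, 5.65 and 5.50 in brain, 5.86, 5.21, 5.62, 5.46 and 5.12 in heart, and 5.02, 4.46, 4.85, 4.65 and 4.84 in liver. Brain and heart overlapped almost fully, and every liver array lay below them, by a margin of a few hundredths at the closest. Brain averaged 5.44 ± 0.30, heart 5.46 ± 0.30 and liver 4.76 ± 0.21 (SD, n = 5 each). Brain minus liver was 0.68 (SE 0.16, adjusted p = 0.00328) and heart minus liver 0.69 (SE 0.16, adjusted p = 0.00266), while brain minus heart was -0.018 with a 95% interval of -0.35 to 0.31 (adjusted p = 0.960). Its mean stayed under 6 in every tissue, so a filter on dim genes removed it.

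Epha2, the receptor of Efna1 with known roles in endothelial migration, did not differ detectably. Its levels were 7.45, 7.01, 6.81, 7.06 and 6.69 in brain, 7.69, 6.91, 7.00, 7.01 and 6.96 in heart, and 7.41, 6.85, 7.00, 7.01 and 6.62 in liver. Replicate 1 was the highest array in each tissue, and the other arrays of the 3 tissues lay in 1 common range. Brain averaged 7.00 ± 0.29, heart 7.12 ± 0.32 and liver 6.98 ± 0.29 (SD, n = 5 each). The differences were -0.11 for brain minus heart (95% interval -0.47 to 0.25, adjusted p = 0.737), 0.025 for brain minus liver (-0.33 to 0.39, adjusted p = 0.950) and 0.14 for heart minus liver (-0.22 to 0.50, adjusted p = 0.599). These intervals leave room for differences of up to 0.50, so equal levels are not shown.

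**Figure D2:**
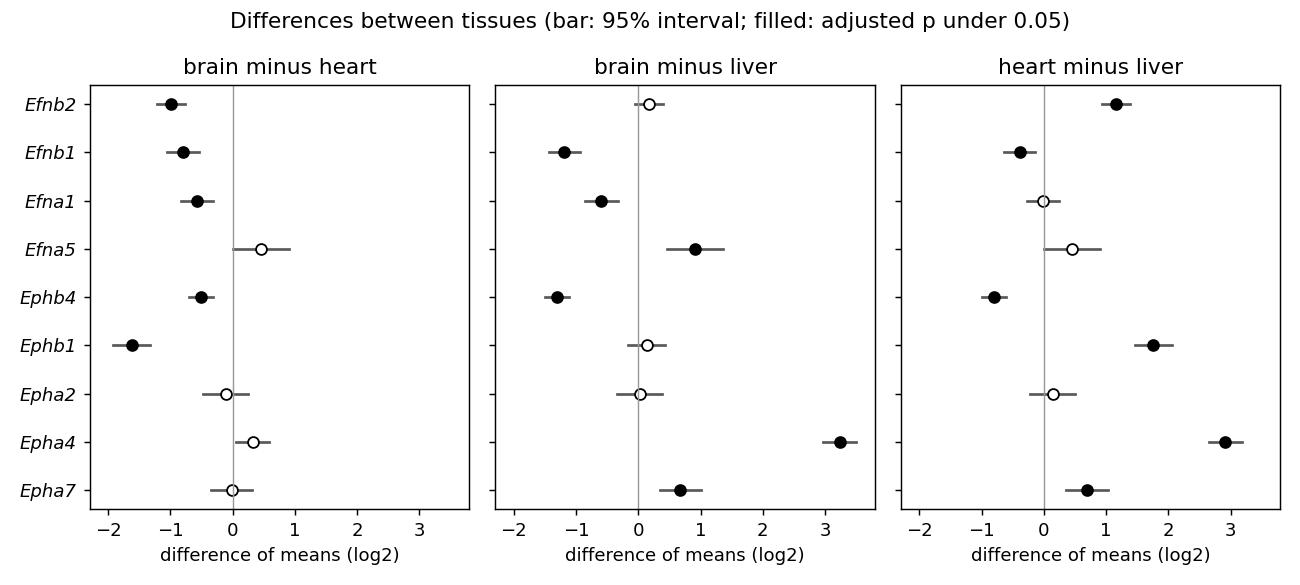
Log2 differences of the 9 measured members for brain minus heart, brain minus liver and heart minus liver, as points with 95% intervals from the limma fit, filled where the adjusted p was under 0.05. Epha4 reaches 3.23 and 2.91 against liver, Ephb1 and Efnb2 lie below 0 in brain minus heart and above 0 in heart minus liver, Ephb4 is below 0 in all 3 contrasts, and the 3 intervals of Epha2 cover 0.

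Counted together, 5 of the 9 members were called for brain minus heart, all 5 lower in brain, in a comparison in which 15.4% of all genes were called, 8.29% higher and 7.11% lower in brain. For brain minus liver 6 were called, 3 higher and 3 lower in brain, against 25.1% of all genes (11.1% higher and 14.0% lower). For heart minus liver 6 were called, 4 higher and 2 lower in heart, against 27.8% of all genes (11.5% higher and 16.3% lower). The arrays of the tissues did not overlap for 4 members in brain and heart (12.8% of all genes), 4 in brain and liver (19.0%) and 6 in heart and liver (20.6%). The median absolute difference of the members was 0.50, 0.68 and 0.69 in these comparisons, beside 0.13, 0.14 and 0.16 over all genes. The members' median signed differences were -0.50, 0.13 and 0.45, beside -0.028, -0.0022 and 0.032 over all genes. With heart replicates 1 and 3 left out 5, 6 and 6 members were called in the 3 comparisons, and with liver replicates 1, 3 and 4 left out 6, 5 and 5. Since the members were chosen with earlier results known, these counts describe the list and are no test of it.

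The study's own design looked for genes that set 1 endothelium apart from both others. Brain was called lower than both other tissues for Efnb1, Efna1 and Ephb4, a pattern that 2.82% of all genes showed, and no member was higher in brain than in both (4.70%). Heart exceeded both others for Efnb2 and Ephb1 (3.73% of genes) and lay below both for no member (3.27%). Liver exceeded both others for Efnb1 and Ephb4 (10.4%) and lay below both for Epha4 and Epha7 (5.64%). The Efnb1 step between heart and liver lost its call without heart replicate 2, heart replicate 4 or liver replicate 1 (limma adjusted p of 0.0601, 0.0505 and 0.0592). With a difference of at least 1 from both other tissues required, 2 members qualified, Ephb1 as higher in heart (0.908% of genes) and Epha4 as lower in liver (1.46%), where 6.96% of all genes qualified in some tissue. Leaving out single arrays gave 2 to 3 members, the third being Efnb2 as higher in heart once any 1 of brain replicates 1 and 3 and heart replicates 2, 3 and 4 was left out. No member met that rule as higher in brain (1.56%), lower in brain (0.652%), lower in heart (0.311%) or higher in liver (2.69%). By class, all 4 B-class members were called lower in brain than in heart, as was 1 of the 5 A-class members, Efna1. Over all genes that share was 7.11%. The B-class genes measured outside the member list, Ephb3, Ephb6 and Efnb3, were not called in that comparison. Against liver, 3 of the 5 A-class members were called higher in brain and 1 lower, and of the 4 B-class members 0 higher and 2 lower. Of those 3, Efna5 lost its call with liver replicates 1, 3 and 4 left out (adjusted p = 0.0544). Over all genes, 11.1% were higher and 14.0% lower in brain than in liver. Of the other 12 family genes only Efna3, an A-class ligand, was called there, as higher in brain. These comparisons share arrays, so their counts are not independent of each other.

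Of the other 12 Eph and ephrin genes on the array, 2 were called in some comparison, Efna3 and Epha1. For brain minus heart 2 of the 12 were called (15.4% of all genes), for brain minus liver 1 (25.1%) and for heart minus liver 2 (27.8%). Efna3, an A-class ligand, had a brain mean of 5.47 ± 0.16, a heart mean of 5.04 ± 0.093 and a liver mean of 4.73 ± 0.22 (SD, n = 5 each), with brain above heart by 0.43 (SE 0.10, adjusted p = 0.00724) and above liver by 0.75 (adjusted p = 2.12e-05). Heart minus liver was 0.32 for Efna3 (adjusted p = 0.0293), a call lost when any 1 of heart replicates 1, 2 and 5 and liver replicates 3 and 5 was left out, with liver minus heart between -0.36 and -0.25 and adjusted p up to 0.0865 over the 15 fits that leave out 1 array. Epha1, an EphA receptor best known from epithelia, had means of 5.53 ± 0.10, 6.06 ± 0.33 and 5.62 ± 0.11 for brain, heart and liver. Its brain minus heart difference was -0.53 (adjusted p = 0.00606). Heart minus liver was 0.45 for Epha1 (SE 0.13, adjusted p = 0.0120), and 0.39 once liver replicates 1, 3 and 4 were left out (adjusted p = 0.167). The remaining 10, Epha3, Epha5, Epha6, Epha8, Epha10, Ephb3, Ephb6, Efna2, Efna4 and Efnb3, had array values between 3.41 and 6.50. None of their 30 tests passed limma's adjusted threshold, 3 had an unadjusted p under 0.05, and the widest difference was 0.24, for Efna4. Over all 21 genes of the family, brain minus heart gave 1 higher, 6 lower and 14 not called, brain minus liver 4, 3 and 14, and heart minus liver 6, 2 and 13. Of all genes on the array, 8.29% were higher and 7.11% lower in brain minus heart and 11.1% and 14.0% in brain minus liver. For heart minus liver these shares were 11.5% and 16.3%. Eph and ephrin genes resemble each other in sequence, and binding of one member's RNA to another's probes was not tested.

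**Figure D3:**
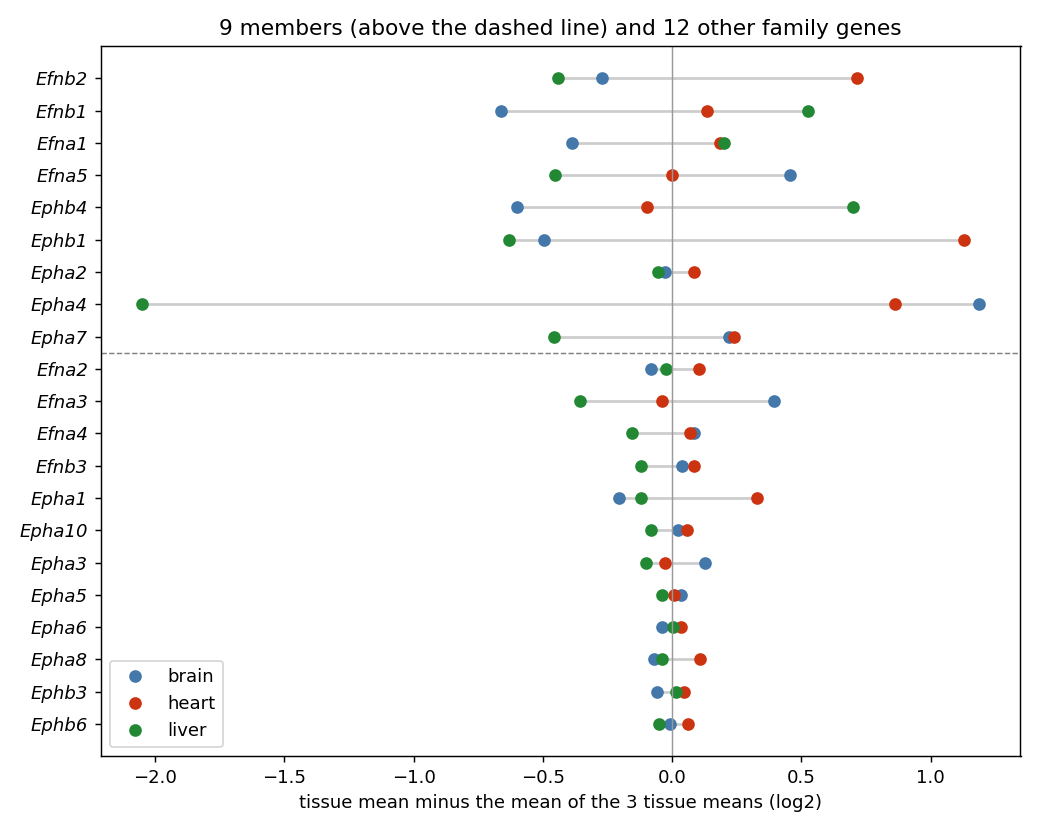
Mean log2 level of brain, heart and liver (points) minus the mean of the 3 tissue means, for all 21 measured Eph receptors and ephrins, with the 9 members above a dashed line and the other 12 genes below it. Epha4, Ephb1, Ephb4, Efnb1 and Efnb2 span at least 1, while among the other 12 genes Efna3 spans 0.75 and Epha1 0.53 and the rest at most 0.24.

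Forward signals run through exchange factors, adaptors and kinases bound to the receptor's tail. Of 37 such genes listed, 36 were measured, and 5 were called higher and 5 lower in brain against both others, 6 higher and 3 lower in heart, and 7 higher and 5 lower in liver. Over all genes these shares were 4.70% and 2.82% in brain, 3.73% and 3.27% in heart, and 10.4% and 5.64% in liver. Between tissues, 6 were called higher and 10 lower in brain minus heart, 9 and 10 in brain minus liver, and 10 and 9 in heart minus liver, where 15.4%, 25.1% and 27.8% of all genes were called. The list thus moved in no single direction, and its median differences were -0.061, -0.031 and 0.0040 on the log2 scale.

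Brain endothelium had the highest Chn2, a GTPase activator for Rac of the chimaerin family, with means of 9.36 ± 0.079 for brain, 7.44 ± 0.038 for heart and 6.46 ± 0.30 for liver (SD, n = 5 each). It exceeded heart, the nearer tissue, by 1.92 (SE 0.11, adjusted p = 5.14e-10), and liver was in turn lower than heart by a difference of -0.98. Chn1, the related gene known to act below Epha4 in neurons, was instead highest in heart, with means of 4.67 ± 0.37, 5.79 ± 0.64 and 4.13 ± 0.085 for brain, heart and liver, and heart above brain by 1.12 (SE 0.24, adjusted p = 0.00255). Also higher in brain than in both were the adaptor Grb7 by 1.34 over heart, the Rac exchange factor Tiam1 by 0.50 over liver and the adaptor Anks1 by 0.27 over liver. The Anks1 step was not called when any 1 of brain replicates 1, 2 and 4 and liver replicates 2 to 5 was left out, with differences of 0.23 to 0.35 and adjusted p up to 0.0907 over the 15 fits that leave out 1 array.

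Vav3, an exchange factor that Eph receptors recruit, was the gene of this list that differed most. Its brain mean was 5.14 ± 0.16, its heart mean 8.38 ± 0.22 and its liver mean 8.84 ± 0.34, and brain was lower than heart by a difference of -3.24 (SE 0.14, adjusted p = 1.57e-11), or 9.44-fold. Its relative Vav2 was higher in liver by 0.53 over brain. Fyn, a Src-family kinase active downstream of both receptors and ephrins, had means of 9.04 ± 0.36, 10.15 ± 0.14 and 11.11 ± 0.18 for brain, heart and liver, with brain below heart by a difference of -1.11 (adjusted p = 1.67e-05) and liver above heart by 0.96 (adjusted p = 4.79e-05). The adaptor Nck1 (-0.59) and the endothelial exchange factor Arhgef15, which acts below Eph receptors (-0.45), were lower in brain than in both others.

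In heart, the adaptors Sh2d3c (0.49), Nck2 (0.47) and Grb10 (0.40) were higher than in both others, and Itsn1 (-0.83), Tiam1 (-0.54) and Anks1 (-0.34) were lower. With liver replicates 1, 3 and 4 left out, heart minus liver was 0.38 for Sh2d3c, 0.36 for Grb10 and -0.29 for Anks1 (adjusted p of 0.0616, 0.182 and 0.0567), and brain minus liver was 0.49 for Tiam1 (adjusted p = 0.0576). With heart replicates 1 and 3 left out, heart minus liver was 0.27 for Grb10 (adjusted p = 0.123). Liver had the highest Itsn1, an exchange factor for Cdc42 that Ephb2 is known to bind, at 8.45 ± 0.21, against 6.89 ± 0.14 in brain, with a difference of 1.56 (SE 0.13, adjusted p = 2.02e-08), and the kinase Abl1 was higher in liver by 0.75. Lower in liver were the scaffold Afdn (-1.35), the exchange factor Kalrn (-0.85) and the adaptor Nck2 (-0.64).

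Reverse signals run through proteins that bind the ephrin's tail, and sheddases such as Adam10 cut ephrins off the cell. Of 15 listed genes of this side, 14 were measured, with 1 higher in brain than in both others, 1 higher and 1 lower in heart, and 2 higher and 1 lower in liver, beside 4.70% of all genes higher in brain, 3.73% higher and 3.27% lower in heart, and 10.4% higher and 5.64% lower in liver. Dab2, an endocytic adaptor linked to uptake of VEGF receptors below Efnb2, had means of 9.80 ± 0.16, 9.40 ± 0.13 and 11.37 ± 0.17 for brain, heart and liver, with liver above brain by 1.57 (SE 0.10, adjusted p = 6.37e-10) and heart below brain by a difference of -0.40 (adjusted p = 0.00820). The heart step of Dab2 was -0.32 with heart replicates 1 and 3 left out (adjusted p = 0.0794) and -0.14 when all probe sets of the gene were averaged (adjusted p = 0.292). Adam10 was higher in brain, by 0.47 over liver (adjusted p = 0.00267), and the related sheddase Adam17 was lower in liver, by a difference of -0.32 from heart (adjusted p = 0.00468). The Adam10 step was 0.46 against liver replicates 2 and 5 alone (adjusted p = 0.0515). Small steps of Grip2 (0.29 in heart over liver) and Sdcbp (0.29 in liver over heart), both carriers of PDZ domains that hold the tail of B-class ephrins, rested on single arrays. The Grip2 call was lost without heart replicate 5 or liver replicate 1 (adjusted p up to 0.051), and the Sdcbp call when any 1 of heart replicates 3, 4 and 5 and liver replicates 1 and 2 was left out (adjusted p up to 0.109).

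**Figure D4:**
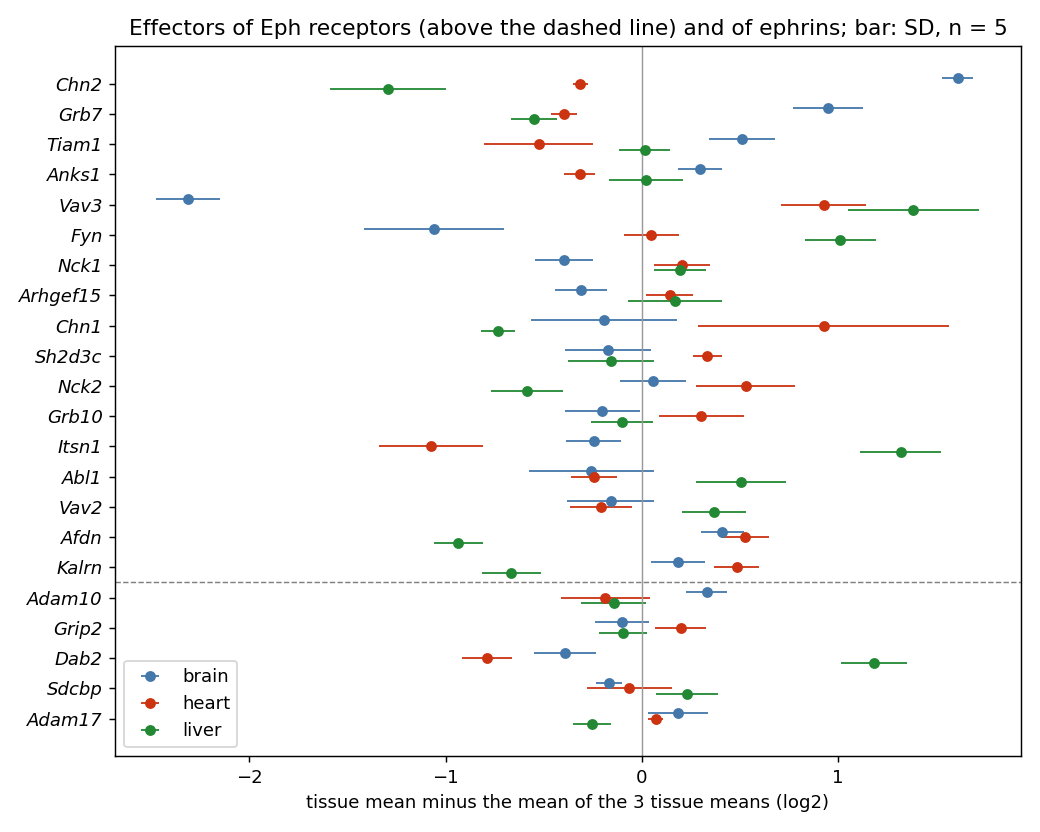
Mean log2 level of brain, heart and liver (points, with bars for the SD over 5 arrays) minus the mean of the 3 tissue means, for the named partners of Eph receptors above a dashed line and of ephrins below it. Vav3 lies far to the left in brain, 3.24 below heart, Chn2 lies to the right in brain, 1.92 above heart, and Itsn1 and Dab2 lie to the right in liver.

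The genes most like a member were sought by Pearson correlation over the 15 arrays, as a description, for the 5 members whose tissue means span at least 1 and among the 2035 other genes with such a span (10.2% of all genes have one). The arrays form 3 tissue clusters, so a high value mainly means the same order and spacing of the tissues. Nearest to Epha4 were Stard13 (r = 0.991), Palmd (0.990) and Hspb1 (0.989). Palmd, for example, had means of 11.21, 10.82 and 6.12 for brain, heart and liver. Nearest to Ephb4 were Hoxb5 (0.983), Plcl2 (0.979) and Chst15 (0.977), and Hoxb5 climbed over 5.52 in brain, 6.42 in heart and 8.76 in liver. Ephb1 was followed by Gas2 (0.979), Nav3 (0.976) and Nts (0.974), each highest in heart, with Nav3 at 5.32, 8.66 and 5.11 in brain, heart and liver. Nearest to Efnb2 were Lamb1 (0.967), Igf2r (0.965) and Tmem255b (0.964), and nearest to Efnb1 were Ncoa3 (0.960), Fads3 (0.956) and Sema3f (0.953). No gene appeared beside more than 1 member.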

How the data were processed

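Amplified RNA of the 15 sorted endothelial samples was read on Affymetrix mouse gene arrays. The log2 values that the authors deposited, 35556 probe sets per array, were made by RMA with Affymetrix Power Tools per the submitters' processing notes. Versions and the array's build were not given in the sources used here. RMA equalises the arrays and compresses folds. Of the probe sets, 21789 carried 1 symbol in the platform annotation, and the probe set with the highest mean was kept for each of 19938 genes. The deposited values were fitted, unaltered, with a mean per tissue in limma 3.58.1 (R 4.3.3), with 12 residual and 4.75 prior degrees of freedom, contrasts brain minus heart, brain minus liver and heart minus liver, and Benjamini-Hochberg adjustment over all genes. The fit was tested on simulated data. Precision is limited by 5 arrays per tissue.

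Members and gene lists were chosen with earlier results of these data known. All members are named. From the other lists, up to 4 genes per tissue and direction are named, those furthest from the nearer tissue among genes higher or lower than both others. The 3 best correlated genes are given for members spanning at least 1. Promoter windows came from RefSeq. Alternatives were a replicate block, leaving out each array, 2-tissue fits, a dim filter at 6, centring on the median or on endothelial genes, all probe sets averaged, and a robust trended fit. Leaving out 2 heart or 3 liver arrays was added after seeing the data.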

Additional observations from a re-analysis of the deposited data

Results flagged for a closer look

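Of 63 groups of 5 arrays (21 family genes in 3 tissues), 9 held 1 array far from the others by Dixon's criterion, where chance gives about 1 in 20. Among the members this was Epha2 in heart, with 7.69 in replicate 1 against 6.91 to 7.01 in the other heart arrays. Epha1 had 6.64 in heart replicate 1 (others 5.78 to 6.00) and 5.41 in liver replicate 1 (others 5.64 to 5.68). Ephb6 had 5.13 in heart replicate 1, against 5.49 to 5.54. The remaining 5 were small departures in low genes: Epha3 at 3.81 in heart replicate 3 (3.95 to 3.99), Epha5 at 4.26 in brain replicate 2 (4.18 to 4.20) and at 4.11 in heart replicate 5 (4.18 to 4.20), Efna2 at 3.88 in brain replicate 3 (4.19 to 4.29) and Efna3 at 5.75 in brain replicate 2 (5.38 to 5.42). Of these 9 values, 4 came from a replicate 1 array.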

How the results depend on the processing

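Of 405 member differences with 1 array left out, 388 kept direction and side of the threshold, 3 lost a call, 2 gained one and 12 changed sign, none of these called. Members called ranged over 5 to 6 (brain minus heart), 6 to 6 (brain minus liver) and 5 to 6 (heart minus liver). Sign changes lay within Epha7 brain minus heart (-0.10 to 0.084), Epha2 brain minus heart (-0.22 to 0.031), brain minus liver (-0.086 to 0.13) and heart minus liver (-0.0055 to 0.25), and Efna1 heart minus liver (-0.066 to 0.045). Of 240 under the other alternatives, 226 held, 2 lost a call, 4 gained one and 8 changed sign: Epha7 brain minus heart 0.00078 and Epha2 brain minus liver -0.0096 with median centring; Epha2 brain minus liver -0.063 and Efna1 heart minus liver 0.0032 with endothelial centring; Epha2 brain minus heart 0.039, Epha7 brain minus heart 0.17 and Epha2 heart minus liver -0.014 without 2 heart arrays; and Efnb2 brain minus liver -0.028 without 3 liver arrays. The last setting called 3285 genes for heart minus liver, against 5538, with fewer samples. Endothelial centring moved the median of all genes by -0.11, -0.088 and 0.018 in the 3 contrasts. The dim filter left 1, 0 and 1 calls among the other 12 family genes.

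Replicate numbers were not taken as pairing: 6 of 15 same-number correlations exceeded 0.1, though 12 of 15 arrays correlated best with their own number. With the replicate block 6, 6 and 6 members were called in the 3 contrasts and 3369, 5282 and 5936 genes, and Epha4 brain minus heart was called (0.32, adjusted p = 0.0324).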

Other observations

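Genes known as arterial or venous markers were read beside Efnb2 and Ephb4, which are in neither list. Of 16 arterial genes, 6 were higher and 1 was lower in brain than in both other tissues, 1 was higher in heart, and 2 were higher and 11 lower in liver. Over all genes, 4.70% were higher and 2.82% lower in brain, 3.73% higher in heart, and 10.4% higher and 5.64% lower in liver. Of the 10 pericyte and smooth muscle markers 5 were lower in liver too and 0 were called higher there than in both others. In the order brain, heart, liver, Acta2 had means of 8.53, 8.42 and 5.15 and Myh11 8.34, 8.48 and 6.24. Abcc9 went the other way, with 6.11, 8.41 and 8.72, and Kcnj8 had 6.41, 8.00 and 7.00. The part of these markers in the arterial list was not tested. The transcription factor Hey1, a Notch target, was lower in liver at 5.54 ± 0.21, against 8.88 ± 0.32 in brain and 9.01 ± 0.12 in heart, a difference of -3.33 from brain (SE 0.14, limma adjusted p = 1.84e-12). Mgp (-2.75), Fbln5 (-2.00) and the Notch ligand Jag1 (-1.17) were lower in liver too, each against heart. In brain, the kinase Bmx exceeded heart by 2.38, the receptor Acvrl1 by 1.05, Jag1 by 0.97 and Mgp by 0.95. The Mgp step over heart was lost when any 1 of brain replicates 1, 2 and 3 and heart replicates 2, 3 and 5 was left out (0.84 to 1.10, adjusted p up to 0.0829). Not all arterial genes were low in liver, since the connexin Gja4 exceeded brain by 1.61 and Nrp1 exceeded heart by 0.35 (0.28 with heart replicates 1 and 3 left out, adjusted p = 0.106). Cxcr4, a chemokine receptor, was higher in heart by 1.76 over brain, as Efnb2 was higher there.

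Of 11 measured venous genes, 3 were higher and 1 was lower in brain than in both others, 1 was higher and 3 lower in heart, and 4 were higher and 2 lower in liver, beside 4.70% and 2.82% of all genes in brain, 3.73% and 3.27% in heart, and 10.4% and 5.64% in liver. Flt4, the receptor for VEGF-C, had means of 7.61 ± 0.18, 7.06 ± 0.17 and 9.98 ± 0.29 for brain, heart and liver, with liver above brain by 2.36 (SE 0.13, adjusted p = 1.24e-10). Nr2f2, the transcription factor of venous identity, was higher in liver by 1.59 over brain and lower in heart by a difference of -0.75 from brain, and Lepr was higher in liver by 0.84 and lower in heart by a difference of -2.58. Liver was highest for Ephb4 as well, but not for Aplnr, which was lower in liver than in brain by a difference of -3.74 and higher in heart than in brain by 1.65. Brain had the highest Slc38a5, an amino acid transporter (4.63 over heart), Vwf (1.92) and Vcam1 (1.49 over liver). Nrp2 was lower in brain by a difference of -1.07 from heart, and its step of liver over heart (0.43) was lost when any 1 of heart replicates 1 and 3 and liver replicates 1 and 2 was left out (0.37 to 0.49, adjusted p up to 0.0710). Emcn, a sialomucin also among the 20 endothelial genes, was lower in liver by a difference of -0.65 from brain.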
